A study of Mus musculus with 16 samples.

Results

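The 10 genes described here are immediate early genes and members of the AP-1 family of transcription factors: Fos, Fosb, Fosl2, Jun, Junb, Jund, Egr1, Ier2, Ier5l and Dusp1. They were picked by name, with their levels in these CD8+ T cells already known, out of 16243 genes listed in all 9 CD8+ T cell matrices. Their levels in those matrices are therefore given as a description. The fold change, its standard error (SE) and whether it passed a threshold are given with it and are not read as a test. Other genes, from lists also chosen with earlier results known, and the same 10 genes in other cells of the naive spleen, are tested. Kidneys of DBA/2J mice were transplanted into C57BL/6J (B6) recipients, which accept them without treatment, and viable CD45+ cells of the graft and of the recipient spleen were sorted and sequenced by droplet single-cell RNA-seq 1, 3 and 24 weeks later. In the opposite combination, a B6 kidney in a DBA/2J recipient, the graft is rejected, and graft and spleen were taken at 1 week. A naive spleen served as the untransplanted control. The labels give the strain C57BL/6J and the genotype WT for every sample, including the rejecting ones, the study used male mice, and no age is given in the sources used here. Accepted kidney and recipient spleen had 3 libraries each at 1 week, 5 at 3 weeks and 3 at 24 weeks, rejecting kidney had 2, rejecting recipient spleen had 3 and naive spleen had 5. Each library tag in the cell names was taken as 1 mouse, because for accepted grafts their number matches the mice per time point in the study's methods, and every SD given here is the spread between libraries.

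Immediate early genes are transcribed within minutes of a stimulus without new protein synthesis, and their mRNAs are short-lived. Fos and Jun proteins pair through a leucine zipper to form AP-1, which binds DNA at the sequence TGACTCA or TGAGTCA. In T cells, AP-1 is induced by T cell receptor and costimulatory signals through MAP kinases and acts with NFAT at cytokine genes. Egr1 is a zinc finger factor induced through the same kinases, Dusp1 is a phosphatase that switches off p38 and JNK, and Ier2 and Ier5l belong to the IER family. The same genes are also known to respond to enzymatic digestion and handling of tissue, which bears on every comparison of kidney with spleen here: the kidneys were perfused and digested with collagenase, while the spleens were only ground and treated with a lysis buffer, so that tissue and preparation cannot be told apart.

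Sequences around the start sites are shown because several of the genes varied together over the conditions and Ier5l did not follow them. Promoter windows of 250 bases before and 50 bases after the RefSeq start (GRCm38.p6) were matched for 8 of the 10 genes. Capitals mark matches on either strand to the cAMP response element TGACGTCA, its core TGACG, the EGR motif GCGTGGGCG or GCGGGGGCG and TATAAA, and positions are counted from 0 at the start. The Fos window is on the plus strand at chr12:85473640-85473939, and those of Fosb (chr7:19309996-19310295), Dusp1 (chr17:26508423-26508722) and Ier5l (chr2:30474150-30474449) are on the minus strand and are printed in the direction of transcription.
Fos: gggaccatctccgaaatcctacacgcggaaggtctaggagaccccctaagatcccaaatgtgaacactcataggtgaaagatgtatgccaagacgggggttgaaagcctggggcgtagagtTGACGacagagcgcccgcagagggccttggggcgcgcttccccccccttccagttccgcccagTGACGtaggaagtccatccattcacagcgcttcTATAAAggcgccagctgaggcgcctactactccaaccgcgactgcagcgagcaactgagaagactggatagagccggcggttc
Fosb: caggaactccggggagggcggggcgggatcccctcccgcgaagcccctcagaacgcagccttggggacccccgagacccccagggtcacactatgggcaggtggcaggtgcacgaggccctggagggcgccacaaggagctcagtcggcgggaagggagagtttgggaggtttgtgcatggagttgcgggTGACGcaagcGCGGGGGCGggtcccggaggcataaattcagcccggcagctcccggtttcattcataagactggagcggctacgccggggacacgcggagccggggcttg
Dusp1: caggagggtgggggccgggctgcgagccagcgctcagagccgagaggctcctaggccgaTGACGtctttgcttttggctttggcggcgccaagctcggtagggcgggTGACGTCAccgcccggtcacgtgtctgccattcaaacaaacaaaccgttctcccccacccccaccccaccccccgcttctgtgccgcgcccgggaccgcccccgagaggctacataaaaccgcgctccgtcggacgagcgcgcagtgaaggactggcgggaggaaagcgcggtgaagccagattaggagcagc
Ier5l: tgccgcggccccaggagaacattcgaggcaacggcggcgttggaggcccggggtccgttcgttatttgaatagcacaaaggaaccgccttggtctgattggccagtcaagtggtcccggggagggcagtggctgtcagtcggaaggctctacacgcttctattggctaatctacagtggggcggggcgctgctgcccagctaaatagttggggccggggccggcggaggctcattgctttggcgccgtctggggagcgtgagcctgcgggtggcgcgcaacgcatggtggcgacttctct

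The full element TGACGTCA was present in 1 of the 8 windows, that of Dusp1 at -143, and in 1.79% of all 32851 windows of this length. Its core TGACG, which lies inside the full element, was present in 4 of 8, namely Fos at -129 and -66, Fosb at -60, Junb at -106 and Dusp1, against 20.8% of all windows. The EGR motif was present in 2 of 8, Fosb at -50 and Fosl2 at -79, against 3.47%. TATAAA was present in Fos at -33 and in Junb at 0, against 13.6%. Neither the AP-1 letters TGACTCA or TGAGTCA (5.2% of all windows) nor the CArG box of serum response factor (1.63%) was found in any of the 8 windows. Sites more than 250 bases before the start were not searched, and Egr1 and Ier2 had no window. The windows of Ier5l, Jun and Jund each held none of the 6 motifs, so this does not set Ier5l apart. In the GENCODE M21 annotation Jun, Junb, Jund, Ier2 and Ier5l have a single exon. There Jund starts at chr8:70698949, past the end of its window at chr8:70697788, so its window does not cover that start. Junb, on the minus strand, starts there at chr8:84978718, downstream of the start counted as 0 here. The position of its TATAAA therefore depends on the annotation. The nonamer TTATTTATT, an AU-rich word of unstable mRNAs, was found in the 3′ UTR of 3 of the 10 genes and in 8.01% of 19844 genes with a 3′ UTR of at least 100 bases. The pentamer ATTTA was more frequent than the median of those genes, 1.35 per kb, in 8 of the 10. A match of letters is a description and does not show that a factor binds there. The nonamer (capitals) stands in these stretches of the Fos and Dusp1 3′ UTRs.
Fos: tgttttcaatTTATTTATTaagatggatt
Dusp1: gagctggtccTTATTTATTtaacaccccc

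The 9 matrices held 32 libraries with 153266 to 25960721 unique molecular identifiers (UMIs) each, and levels are given as CPM, a gene's UMIs scaled to a common library total. Library 2 of rejecting spleen had only 56 cells. At most 1.79% of the smaller library's cell barcodes were shared between any 2 libraries. Cd8a or Cd8b1 was detected without Cd4 in 95.4% to 96.4% of cells of 3-week kidney, in 80.4% to 87.6% of 1-week kidney, in 93.7% to 96.8% of naive spleen, but only in 40.4% to 47.8% of 1-week and 42.2% to 50.05% of 3-week recipient spleen and 44.9% to 47.6% of labelled 24-week kidney, against 92.1% to 94.2% of labelled 24-week spleen. The summed level of the 4 B cell markers was 464 to 929 CPM in 1-week recipient spleen and 27.0 to 55.7 CPM in naive spleen. Its mean was 20.1 CPM in 3-week kidney and 195 in 3-week spleen, and 163 in labelled 24-week kidney and 24.9 in labelled 24-week spleen. The number of kidney parenchyma genes higher in kidney differed in the libraries labelled 24 weeks: of 20 such genes, kidney exceeded spleen for 15 at 1 week, for 19 at 3 weeks, but for 1 at 24 weeks, where 14 were higher in the labelled spleen. The summed level of these genes did not follow tissue at 1 week, with a mean of 10.8 CPM in kidney and 50.9 in spleen. The means were 25.5 and 13.06 CPM at 3 weeks and 11.45 and 27.3 as labelled at 24 weeks. A UMI was found for 17 of the 20 genes in 1-week kidney and 6 in 1-week spleen. These numbers were 20 and 5 at 3 weeks, 9 and 4 in rejecting kidney and spleen, and 6 and 14 as labelled at 24 weeks. A gene not listed in a matrix counts here as without a UMI. The tags of the libraries labelled 24 weeks name the same tissue as their labels. These libraries are called labelled kidney and labelled spleen throughout, and no direction over time or tissue is drawn from them.

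Fos, the founding AP-1 subunit, had its lowest group mean in the rejecting grafts. The 3 libraries of 1-week accepted kidney held 119.7, 99.4 and 65.4 CPM, and the 5 of 3-week kidney held 251, 229, 201, 196 and 158, so that the ranges did not overlap. Recipient spleen held 432, 356 and 132 CPM at 1 week and 136, 175, 154, 121 and 137 at 3 weeks. The first of these spans a wider range than the kidney groups, with 1 library near the 3-week level and the others far above it. Naive spleen ranged from 45.2 to 91.4 CPM with a median of 58.6. Rejecting kidney held 48.8 and 18.8 CPM and rejecting spleen 75.5, 71.8 and 27.2. The labelled 24-week kidney libraries held 439, 372 and 187 CPM and the labelled spleen libraries 217, 126 and 135.

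Fosb, which encodes a close relative of Fos with which it shares partners and targets, lay, like Fos, below the spleen level in 1-week kidney. It held 96.3, 89.9 and 46.8 CPM in 1-week kidney, 185, 175, 172, 139.8 and 161 in 3-week kidney, 282, 289 and 98.4 in 1-week spleen and 77.3, 109, 84.8, 60.2 and 49.0 in 3-week spleen. Every kidney library was below every spleen library at 1 week and above every spleen library at 3 weeks. Both rejecting tissues were lower, with 33.7 and 12.98 CPM in kidney and 17.6, 13.05 and 6.05 in spleen, and naive spleen lay between 22.4 to 50.2 CPM.

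Fosl2, which encodes Fra-2, an AP-1 subunit with no transactivation domain of the Fos type, followed tissue rather than Fos. It held 118, 106 and 88.8 CPM in 1-week kidney and 144, 244, 218, 230.4 and 324 in 3-week kidney, against 14.9, 11.6 and 10.8 in 1-week spleen and 23.1, 24.3, 20.9, 25.4 and 25.0 in 3-week spleen. The groups of each pair did not overlap, and the difference in level was 8.39-fold at 1 week and 9.79-fold at 3 weeks. Rejecting kidney held 118 and 32.4 CPM, and rejecting spleen held 27.7, 0 and 19.7, where the library at 0 is the one with 56 cells. The labelled 24-week kidney libraries held 23.8, 24.3 and 24.2 CPM, and the labelled 24-week spleen libraries 474, 315 and 346.

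Jun, the partner that binds DNA with Fos or by itself, showed the largest difference between 1 and 3 weeks in the accepted kidney among the 10 genes, 4.09-fold. Its level was 239, 245 and 101 CPM in 1-week kidney and 789, 828, 880.0, 806 and 678 in 3-week kidney. Recipient spleen held 523, 448 and 204 CPM at 1 week and 279, 341, 289.7, 302 and 296 at 3 weeks. In both 1-week tissues library 3 stood far below the other 2, and at 3 weeks all libraries of a tissue were close. Naive spleen ranged from 137 to 208 CPM, rejecting kidney held 249 and 93.1 and rejecting spleen 143, 150.1 and 93.8, so the 1-week accepted kidney overlapped all 3 of these groups.

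Junb, which restrains some Jun targets and drives others in T cells, had a similar level in accepted kidney and recipient spleen at 1 and 3 weeks. It held 784, 904 and 756 CPM in 1-week kidney, 993, 785 and 614 in 1-week spleen, 662, 760.0, 756, 731 and 737 in 3-week kidney and 739, 762, 605, 639.6 and 624 in 3-week spleen. All 16 of these libraries were above those of naive spleen, which ranged from 151 to 268 CPM, of rejecting kidney, with 247 and 118, and of rejecting spleen, with 376, 228 and 265. Jund, the Jun family member that is expressed constitutively in many cells, had group means from 247 ± 15.5 CPM (SD, n = 3) in rejecting spleen through 468 ± 26.1 (SD, n = 5) in naive spleen to 1002 ± 212 (SD, n = 3) in 1-week and 1112 ± 209 (SD, n = 3) in labelled 24-week spleen. The lowest library of 1- or 3-week kidney or spleen, at 553 CPM, was above the highest of the rejecting and naive groups, at 503.

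Egr1 was low in all groups, with means from 19.7 ± 1.63 CPM (SD, n = 3) in rejecting spleen to 75.4 ± 10.2 (SD, n = 5) in 3-week kidney. Its 3-week kidney libraries held 62.6, 84.9, 86.7, 72.6 and 70.1 CPM, all above those of 1-week kidney with 48.6, 38.3 and 27.5 and of 3-week spleen, which ranged from 33.9 to 42.4. Ier2, a nuclear immediate early protein, held 229, 237 and 251 CPM in 1-week kidney and 141, 186, 182, 191 and 196 in 3-week kidney, and it was the only one of the 10 genes whose 3-week kidney libraries were all below the 1-week ones. Its spleen libraries held 192, 185 and 171 CPM at 1 week and ranged from 151 to 191 at 3 weeks. Naive spleen ranged from 92.3 to 119 CPM, rejecting kidney held 79.5 and 53.2 and rejecting spleen 79.3, 104 and 68.1, so that no library of these 3 groups reached the lowest of the accepted kidneys and recipient spleens.

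Dusp1, the MAP kinase phosphatase, was 110.1, 104 and 94.3 CPM in 1-week kidney and 185, 198, 203, 214 and 195 in 3-week kidney, without overlap. Recipient spleen held 170.0, 139 and 98.7 CPM at 1 week and 98.0, 120.4, 102, 117 and 95.9 at 3 weeks. The 3 other groups were several-fold lower, with 16.5 to 28.3 CPM in naive spleen, 46.3 and 12.7 in rejecting kidney and 36.5, 32.6 and 28.7 in rejecting spleen. In the gated cells with a CD8 UMI and no Cd4 UMI, the difference between 1-week kidney and spleen, -0.40 on the log2 scale, was -0.01.

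Ier5l was close to absent from the spleens and present in the grafts. It held 112, 124 and 91.2 CPM in 1-week kidney and 228, 317, 321, 329.8 and 394 in 3-week kidney, while the 1-week spleen libraries held 1.66, 1.49 and 1.13, the 3-week spleen libraries 0.523 to 1.39 and naive spleen 0.262 to 0.633. Over pooled libraries the kidney level was 74.9 times the spleen level at 1 week (95% interval 56.4 to 102, counting error only) and 360 times at 3 weeks (233 to 589). Rejecting kidney held 33.7 and 12.7 CPM, and no UMI was found in the 726 cells of rejecting spleen. The pooled kidney level was 11.7 times that of the spleen set at a floor of 3 UMIs over the group. This ratio is no lower bound, since the exact 95% upper limit of the spleen was 2.29 CPM and the kidney libraries differed. The labelled 24-week spleen libraries held 629, 515 and 558 CPM and the labelled kidney libraries 0.541, 1.61 and 0.520. The pooled ratio of labelled spleen to labelled kidney was 656 (410 to 1127). A level summed over cells cannot tell fewer expressing cells from less RNA per cell, and the shares of cells given further on bear on this only as far as depth allows.

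**Figure D1:**
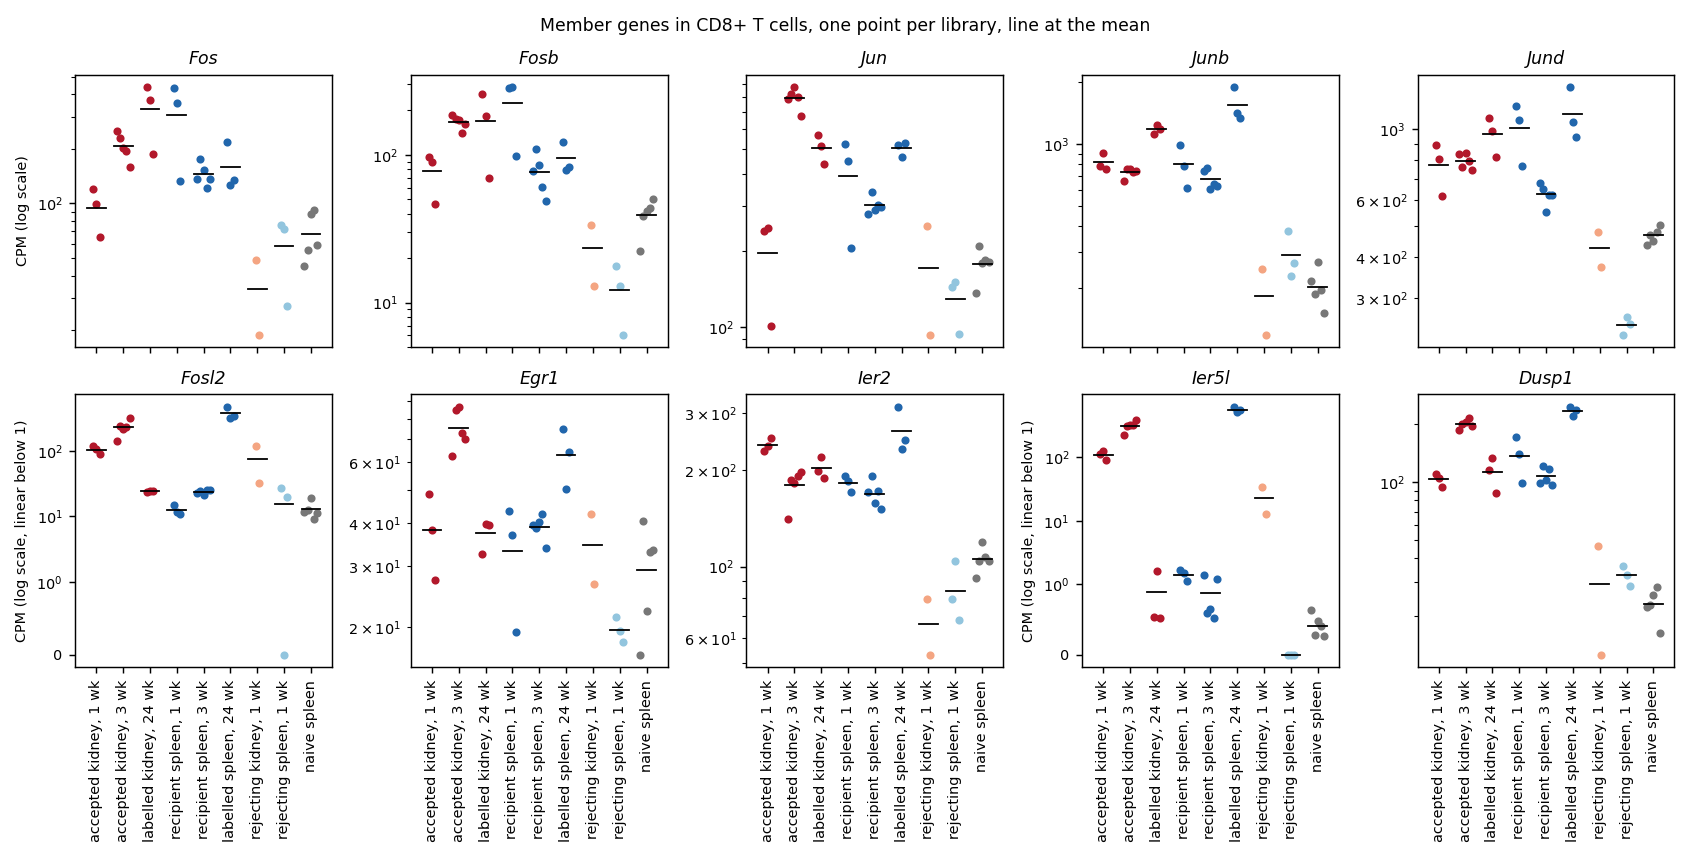
CPM (log axis; linear below 1 for Fosl2 and Ier5l) of each of the 10 genes in CD8+ T cells by condition, with 1 point per library and a line at the group mean (n = 2 to 5). Ier5l and Fosl2 separate the 1- and 3-week grafts from the 1-week, 3-week, rejecting and naive spleens, and are also high in the labelled 24-week spleen, while Junb, Jund, Ier2 and Dusp1 are lower in every rejecting and naive library than in every 1- and 3-week accepted kidney and recipient spleen library. How many of all genes separate the groups in these ways was not counted.

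Fold changes were taken from 1 edgeR fit over 12503 genes, and a gene is counted as called at a Benjamini-Hochberg adjusted p under 0.05. The SE comes from this fit, which shares its estimate of the spread over all CD8+ groups. It can be smaller than the spread of the groups compared. Beside each count of the 10 genes stands the share of all genes called, and since the genes were chosen with these values known, nothing is read from the counts. Where libraries of compared groups are said not to overlap, the share of all genes that do so was not counted. The first comparison asks how graft CD8+ T cells differed between 1 and 3 weeks. Of the 10 genes, 7 were called higher and 1 lower at 3 weeks, where 49.9% of all genes were called higher and 20.8% lower. The median of the 10 was 1.05 on the log2 scale against 0.39 over all genes. Jun differed by 2.03 ± 0.25 (log2, SE), Ier5l by 1.55 ± 0.15, Fosl2 by 1.16 ± 0.22, Fos by 1.13 ± 0.29, Fosb by 1.11 ± 0.31, Egr1 by 0.99 ± 0.19 and Dusp1 by 0.96 ± 0.17. Ier2 differed by -0.41 ± 0.11, Junb by -0.16 ± 0.16 and Jund by 0.04 ± 0.12. With TMM factors, which move the median of all genes, the share of called genes that were higher went from 70.6% to 49.3%, the median of the 10 became 0.68, Junb became -0.54 and Jund -0.33, both called lower. With DESeq2 Fosb, at 0.76, was not called. The mitochondrial share was 3.69% to 4.49% in 1-week and 2.06% to 2.38% in 3-week kidney, and the share of cells with a CD8 UMI and no Cd4 UMI was 80.4% to 87.6% and 95.4% to 96.4%. The part of the mitochondrial share in these differences was not tested. In the gated cells with a CD8 UMI and no Cd4 UMI the differences were close to these, at 2.07 for Jun, 1.45 for Ier5l, 1.18 for Fos, 1.13 for Fosb, 1.13 for Fosl2, 1.07 for Egr1, 1.02 for Dusp1, -0.44 for Ier2, -0.15 for Junb and 0.06 for Jund.

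In recipient spleen, 1 gene was called higher and 3 lower at 3 weeks than at 1 week, where 28.6% of all genes were called higher and 19% lower (60.1% of calls higher, 46.5% with TMM factors). Fosb differed by -1.54 ± 0.30 and Fos by -1.08 ± 0.28, with overlapping libraries, Jund by -0.68 ± 0.12 and Fosl2 by 0.93 ± 0.27, without overlap. The B cell markers were also lower at 3 weeks, at a mean of 195 CPM against 715, and in gated cells Fosb was -1.55, Fos -1.13 and Jund -0.74. The low library 3 of 1-week spleen weighs on these values: without it Jun (-0.69) and Dusp1 (-0.53) were also called lower. In gated cells Fosl2 was 0.75 and was not called. Dusp1 was called lower with TMM factors (-0.48) and when only the groups compared were fitted (-0.35).

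Graft CD8+ T cells were then compared with those of the recipient spleen. At 1 week 3 of the 10 genes were called higher in kidney and 4 lower, where 27.2% of all genes were called higher and 25.2% lower. Fos differed by -1.70 ± 0.32, Fosb by -1.53 ± 0.34, Jun by -1.01 ± 0.26 and Jund by -0.38 ± 0.13, lower in kidney, while Fosl2 (3.07 ± 0.27), Ier2 (0.39 ± 0.12) and Ier5l (6.26 ± 0.25) were higher. The B cell markers summed to a mean of 8.89 CPM in this kidney group and 715 in this spleen group, and B-marker cells of naive spleen held more Fosb, 291 ± 55.9 CPM, than its CD8+ T cells, 39.2 ± 10.4 (SD, n = 5). In gated cells Fos was -1.73, Fosb -1.53, Jun -1.01 and Ier5l 6.88. Jund was not called without library 3 of kidney (-0.24) or library 1 (-0.25) or 2 (-0.33) of spleen, nor in gated cells (-0.30) or when only the groups compared were fitted (-0.38). Dusp1 (-0.40 ± 0.18) was called lower without library 3 of spleen, at -0.59. At 3 weeks 7 were called higher in kidney and 0 lower, where 41.6% of all genes were called higher and 19.2% lower (68.4% of calls higher, 51.4% with TMM factors). These were Ier5l (8.46 ± 0.24), Fosl2 (3.29 ± 0.22), Jun (1.40 ± 0.20), Fosb (1.12 ± 0.27), Egr1 (0.95 ± 0.18), Dusp1 (0.90 ± 0.15) and Jund (0.34 ± 0.10, not called with TMM factors at 0.15). Fos differed by 0.52 ± 0.25 and was called when only the groups compared were fitted (0.52), also with the library number as a block (0.51), and without library 5 of kidney (0.60). Junb (0.11 ± 0.14) and Ier2 (0.09 ± 0.10) were not called, and with TMM factors they were -0.08 and -0.11, on the other side of 0. In gated cells Junb was called higher, at 0.44.

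Rejecting and accepted kidneys at 1 week were compared next. None of the 10 genes was called higher in rejecting kidney and 7 were called lower, where 54% of all genes were called higher and 13.8% lower (79.6% of calls higher, 48.9% with TMM factors). The median of the 10 was -1.65 against 0.68 over all genes. Ier5l differed by -2.29 ± 0.24, Junb by -2.17 ± 0.23, Ier2 by -1.86 ± 0.16, Dusp1 by -1.86 ± 0.27, Fosb by -1.78 ± 0.50, Fos by -1.53 ± 0.44 and Jund by -0.85 ± 0.16, and for each of these every rejecting library was below every accepted one. Jun (-0.20 ± 0.30), Fosl2 (-0.50 ± 0.30) and Egr1 (-0.15 ± 0.29) overlapped. How many of all genes were separated in this way was not counted, so nothing is read from it. With TMM factors all 10 were called lower and further from 0, Ier5l at -3.00, Junb at -2.88, Ier2 at -2.57, Dusp1 at -2.57, Fosb at -2.48, Fos at -2.23, Jund at -1.56, Fosl2 at -1.20, Jun at -0.89 and Egr1 at -0.86. The SD of log2 levels in the 2 rejecting libraries was 1.27 for Dusp1. The SE of its fold change rests on the spread shared over all groups. These 2 libraries differed, library 1 being higher for all 10 genes. Without it Fosl2 (-1.68) and Jun (-1.06) were called lower, Junb was -2.79, Fos -2.33, Fosb -2.57, Dusp1 -3.02 and Ier5l -3.10. Without library 2 Junb was -1.72, Dusp1 -1.15, Ier5l -1.69, Fos -0.95 and Fosb -1.20, the last pair no longer called, and Fosl2 (0.18), Jun (0.36) and Egr1 (0.17) changed sign. The mitochondrial share was 1.39% to 1.42% in rejecting and 3.69% to 4.49% in accepted kidney, and mitochondrial and ribosomal protein genes together took 19.7% to 20.2% and 32.4% to 34.2% of UMIs. Their part in these differences was not tested. The recipient strain, the donor strain and the outcome differ together between these groups and cannot be told apart. The deposited matrices differ as well, with 32285 genes listed for rejecting kidney and 19497 for accepted kidney. Whether the groups were prepared or processed apart is not stated in the sources used here. The part of such a difference was not tested and cannot be told apart from the others.

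Within rejecting recipients 3 genes were called higher in kidney than in spleen and 1 lower, where 21.7% of all genes were called higher and 9.58% lower (69.4% of calls higher, 57.5% with TMM factors, 47.1% with DESeq2). Jund differed by 0.81 ± 0.17 and Fosl2 by 1.77 ± 0.51, Ier5l as given before, and Junb by -0.74 ± 0.24. Without library 1 of rejecting kidney Fosl2 was 0.59 and not called (2.46 without library 2), Dusp1 was -1.38 and called lower, and Junb was -1.37. Without library 2 of kidney Junb was -0.30, without library 1 of spleen it was -0.48, fitted on only the groups compared it was -0.70, and it was called in none of these.

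Recipient spleen at 1 week was set against naive spleen, for neither of which a digestion is stated. Of the 10 genes 8 were called higher and 0 lower in the recipient, where 23.3% of all genes were called higher and 28.1% lower. Dusp1 differed by 2.54 ± 0.18, Fosb by 2.51 ± 0.31, Fos by 2.18 ± 0.28, Junb by 1.97 ± 0.16, Jun by 1.14 ± 0.23, Jund by 1.10 ± 0.12 and Ier2 by 0.79 ± 0.11. Ier5l was also called, at levels that came from 48 UMIs over the 3 recipient libraries and 9 over the 5 naive ones, and was not called in gated cells (1.42) or without library 1 of recipient spleen (1.56). In gated cells the differences were 2.19 for Dusp1, 2.58 for Fosb, 2.20 for Fos, 1.74 for Junb, 1.12 for Jun, 1.03 for Jund and 0.74 for Ier2. Fosl2 (-0.04 ± 0.30; 0.06 with TMM factors) and Egr1 (0.19 ± 0.21; -0.14 in gated cells) were not called. The part of the B cell markers in these differences was not tested beyond the gate.

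As labelled, the 24-week libraries gave 3 genes higher and 5 lower in kidney than at 3 weeks, where 15.7% of all genes were called higher and 51.5% lower (23.3% of calls higher, 48.1% with TMM factors). Junb (0.70 ± 0.16), Fos (0.68 ± 0.27) and Jund (0.27 ± 0.12) were higher, and Ier5l (-8.48 ± 0.28), Fosl2 (-3.27 ± 0.26), Egr1 (-1.01 ± 0.21), Dusp1 (-0.83 ± 0.17) and Jun (-0.65 ± 0.24) lower. In gated cells Fos (0.65), Junb (0.35) and Jund (0.11) were not called and Dusp1 was -1.45. With TMM factors Jun (-0.25) was not called and Ier2 (0.58) was called higher, and with DESeq2 Dusp1 (-0.43) was not called. Fos was not called without library 1 (0.43) or 2 (0.59) of labelled kidney or library 5 of 3-week kidney (0.60), Jund without library 1 (0.18) or 2 (0.25) of labelled kidney or library 2 (0.26), 4 (0.27) or 5 (0.25) of 3-week kidney, and Jun without library 3 of labelled kidney (-0.55). Ier5l was -9.18 without library 2 of labelled kidney. Labelled kidney against labelled spleen gave 2 genes higher and 5 lower, where 14.4% of all genes were called higher and 31.6% lower (31.3% of calls higher, 48.6% with TMM factors). Fos (1.05 ± 0.32) and Fosb (0.84 ± 0.35) were higher in labelled kidney, with overlapping libraries, and were lost without its library 1 (0.80 and 0.41). Fosb was also lost without library 2 of labelled kidney (0.77) or library 2 (0.73) or 3 (0.75) of labelled spleen. Egr1 (-0.76 ± 0.23) and Ier2 (-0.39 ± 0.12) were lost without library 1 of labelled spleen (-0.61 and -0.25), and Ier2 also with TMM factors (-0.21). Fosl2 (-3.97 ± 0.28), Dusp1 (-1.07 ± 0.19) and Ier5l (-9.31 ± 0.29) were called without any one library, Ier5l being -10.02 without library 2 of labelled kidney. Junb (-0.39) was called lower when only the groups compared were fitted. In gated cells Fosb (0.84) was not called, Junb (-0.74) and Jund (-0.37) were called lower and Dusp1 was -1.69.

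**Figure D2:**
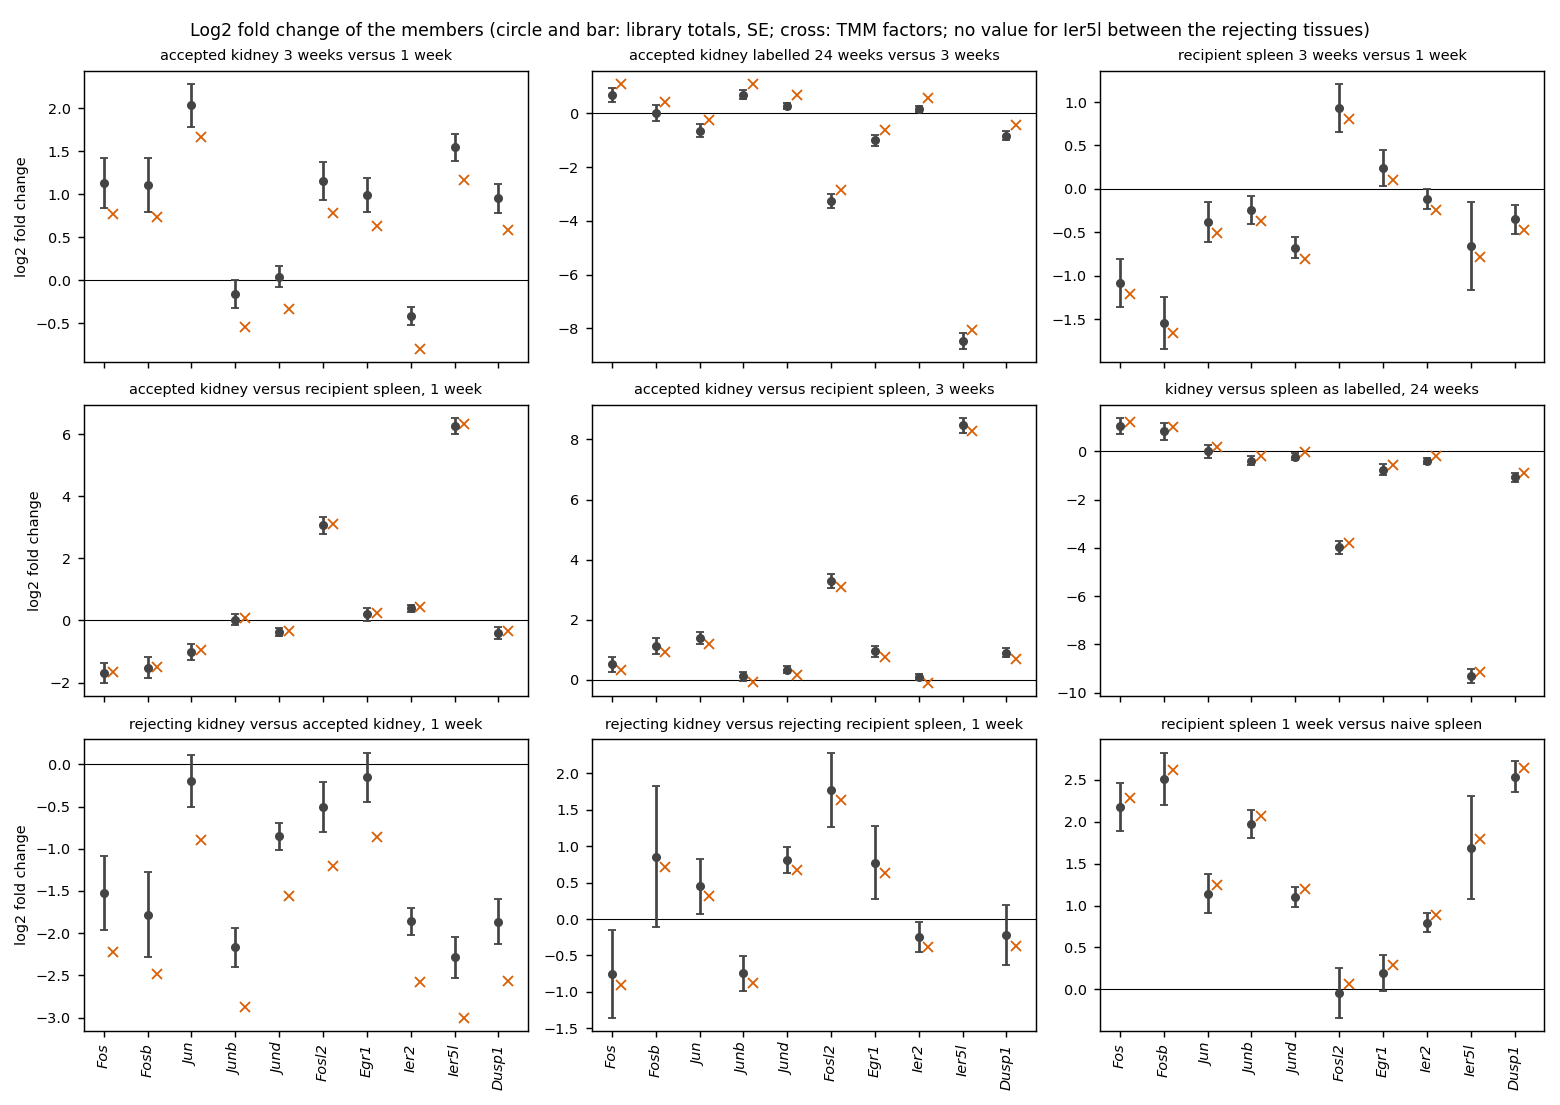
Log2 fold change of the 10 genes in 9 comparisons; circles with bars are the values and SE with plain library totals, and crosses are the values with TMM factors. Ier5l between the rejecting tissues is left out because rejecting spleen had no UMI. For Jund in 3-week against 1-week kidney the circle is at 0.04 and the cross at -0.33, and the 7 genes called lower in rejecting kidney stay below 0 under both scalings.

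Agreement between libraries of a group was uneven and differed by gene. In 1-week spleen library 3 was the lowest for 10 of the 10 genes and library 1 the highest for 9. In 1-week kidney library 3 was the lowest for 9, in labelled 24-week kidney library 3 for 7, and in labelled 24-week spleen library 1 was the highest for 9. The SD of log2 levels in 1-week spleen was 0.91 for Fos, 0.88 for Fosb and 0.73 for Jun, but 0.08 for Ier2, and the median over all genes was 0.13. In 1-week kidney it was 0.72 for Jun and 0.57 for Fosb, but 0.11 for Dusp1 and 0.07 for Ier2, with a median of 0.15 over all genes. At 3 weeks the median SD over all genes was 0.14 in kidney and 0.19 in spleen. How many of all genes went the same way, here and in the order of libraries, was not counted. At 3 weeks Jun had an SD of 0.14 in kidney and 0.11 in spleen, and the SD was smaller than at 1 week for 7 of the 10 genes in kidney and 8 in spleen. It was larger in kidney for Fosl2 (0.42 against 0.21), Ier5l (0.28 against 0.22) and Ier2 (0.19 against 0.07), and in spleen for Ier5l (0.30 against 0.16) and Ier2 (0.13 against 0.08). The mitochondrial share was 5.80%, 6.12% and 5.46% in libraries 1, 2 and 3 of 1-week spleen, so library 3 was the lowest in both measures there. In 3-week kidney library 1, the lowest for 6 genes, had the highest share, 2.38% against 2.06% to 2.26%. In rejecting kidney library 2, the lowest for all 10, had 1.42% against 1.39%. Median UMIs per cell in that library were 2849 against 1631. Those of the library lowest for the most genes were 3260 against 1889 and 2528 in 1-week spleen and 2967 against 1957 to 2194 in 3-week kidney. They were 5420 against 4078 and 4292.5 in labelled 24-week kidney. In 1-week kidney and 3-week spleen they lay between the others, at 2512 and 3333. In labelled 24-week, rejecting and naive spleen they were the lowest. The part of depth was not tested.

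Heat shock genes, which respond to heat and handling, gave values to set beside these. The summed level of 13 heat shock genes ranged from 6754 to 7673 CPM in 1-week kidney, 7922 to 10506 in 3-week kidney, 3554 to 3635 in 1-week spleen, 3913 to 5798 in 3-week spleen, 5445 to 7062 in rejecting kidney, 3012 to 4552 in rejecting spleen and 4472 to 6083 in naive spleen. As labelled at 24 weeks it ranged from 3771 to 6585 CPM in kidney and from 8436 to 11560 in spleen. Hspa1a, the inducible Hsp70 gene, averaged 201 ± 53.2 CPM (SD, n = 3) in 1-week kidney, 597 ± 121 (SD, n = 5) in 3-week kidney and 126 CPM (n = 2) in rejecting kidney, against 0.115 ± 0.0325 (SD, n = 3) in 1-week spleen and 0.123 ± 0.18 (SD, n = 5) in 3-week spleen. Of the 13 genes 12 rose and 0 fell in kidney against spleen at 1 week, beside 27.2% and 25.2% of all genes, and again at 3 weeks, beside 41.6% and 19.2%, by edgeR's adjusted p. In labelled 24-week kidney against labelled spleen 0 rose and 12 fell, beside 14.4% and 31.6% of all genes. In 1-week recipient spleen against naive spleen 0 rose and 9 fell, beside 23.3% and 28.1% of all genes. The part of dissociation in any of these levels was not tested.

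Shares of cells with a UMI were compared after each cell was thinned to 1000 UMIs, which left out 313 of 11913 cells of 1-week spleen, 97 of 4538 of labelled 24-week spleen, 53 of 5891 of 3-week spleen and 1 of 4681 of naive spleen. A class low in the gene gives a background share for Ier5l and Fosl2 only. In rejecting kidney Ier5l was detected in 0.0291% of myeloid-marker cells (median 2330 UMIs) and 2.20% of CD8+ T cells (median 1964 UMIs). In naive spleen Ier5l was detected in 0.107% of B-marker cells (median 2657 UMIs), and its share in the CD8+ T cells of naive spleen is at this level and is read as background. Fosl2 was detected in 0.0608% of the same B-marker cells and 1.18% of CD8+ T cells (median 4296 UMIs). The shares set beside a class come from a draw of UMIs of their own, and a separate draw of the same CD8+ T cells, used for the shares that follow, gave 1.52% ± 0.327 over libraries for Fosl2 in naive spleen and 2.25% ± 1.40 for Ier5l in rejecting kidney. The other genes were detected in 2.05% or more of every class of naive spleen, and no such background was set for them. Fos was detected in 7.43% ± 2.29 of 1-week kidney cells (mean ± SD over libraries), 15.3% ± 2.17 of 3-week kidney, 22.6% ± 9.99 of 1-week spleen, 12.9% ± 2.10 of 3-week spleen and 5.66% ± 2.17 of naive spleen. Jun was detected in 16.3% ± 6.06 and 38.5% ± 3.12 of kidney cells at 1 and 3 weeks and in 15.2% ± 3.00 of naive spleen cells. Junb, the most widely detected of the 10 in the accepted kidneys together with Jund, was detected in 46.9% ± 1.82 and 42.9% ± 3.34 of kidney cells, 17.4% ± 2.93 of naive spleen cells and 13.6% ± 5.87 of rejecting kidney cells. Ier5l was detected in 8.60% ± 0.806 of 1-week and 23.5% ± 4.37 of 3-week kidney cells, or 21.1% and 41.1% of pooled cells without thinning. It was detected in 3 of 4680 naive spleen cells (0.0641%, exact 95% interval 0.0132% to 0.187%) and in 0 of 726 rejecting spleen cells, which allows a share of up to 0.413% of cells with a UMI when 3 counts of the total are taken as the limit.

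Cells with a UMI of at least 3 of the 10 genes made up 19.6% to 29.3% of 1-week kidney, 38.2% to 46.0% of 3-week kidney, 21.1% to 46.5% of 1-week spleen and 18.1% to 25.4% of 3-week spleen. In rejecting kidney the share was 9.16% and 2.63%, in rejecting spleen 1.79% to 5.95% and in naive spleen 4.52% to 6.31%. Every library of accepted kidney and recipient spleen was above every rejecting and naive library. These counts cover all cells of the matrices and were not repeated in gated cells. Only 40.4% to 47.8% of cells of 1-week and 42.2% to 50.05% of 3-week recipient spleen pass that gate, against 93.7% to 96.8% of naive spleen. Cells with none of the 10 ranged from 32.6% to 49.5% in the rejecting and naive libraries and from 3.46% to 18.5% in the others.

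**Figure D3:**
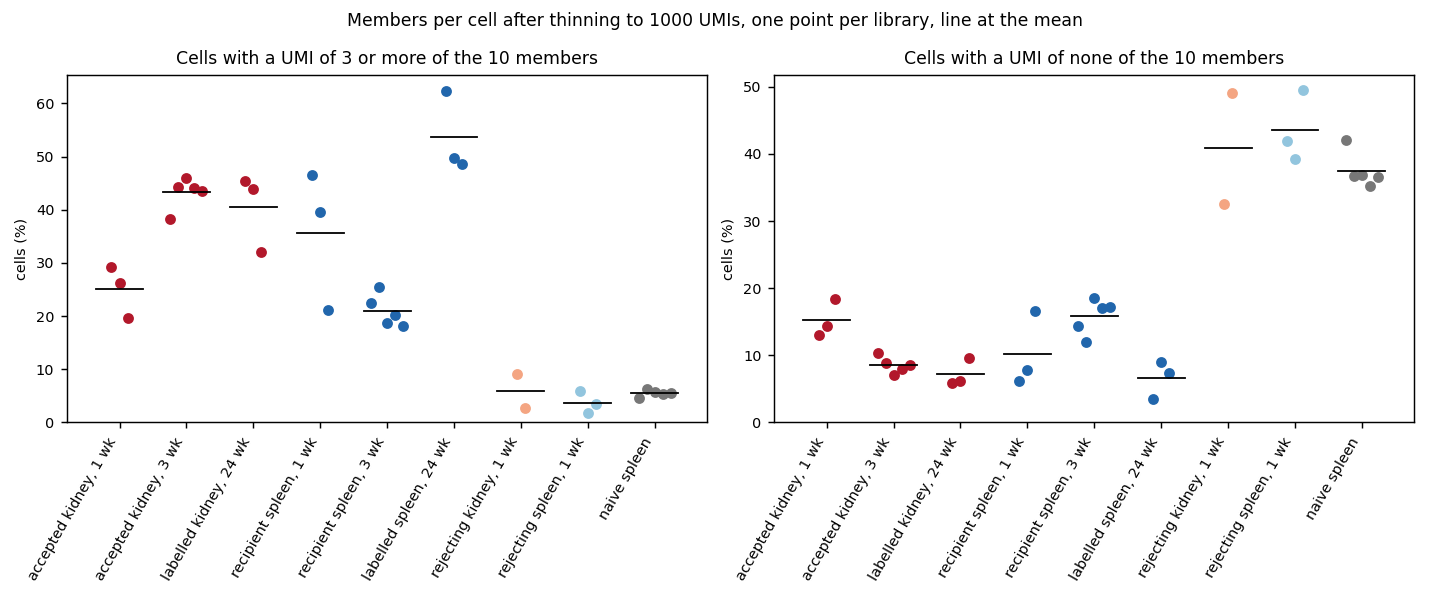
Share of cells with a UMI of 3 or more (left) and of none (right) of the 10 genes after thinning to 1000 UMIs per cell, with 1 point per library and a line at the mean. Accepted kidney and recipient spleen libraries lie at 18.1% or more in the left panel, and rejecting and naive libraries at 9.16% or less. All cells of the matrices are counted, without the gate on CD8 and Cd4 UMIs.

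Within a library, Fosb was detected in a larger share of cells with a Fos UMI than of cells without. Fos differed less between cells with and without an Ier5l UMI. In 3-week kidney Fosb was detected in 21.6% to 27.1% of cells with a Fos UMI and 8.75% to 11.2% of cells without. Fos was detected in 15.0% to 22.9% of cells with Jun and 11.1% to 15.0% of cells without. Cells with an Ier5l UMI did not differ in this way: Fos was detected in 14.8% ± 1.69 of them and 15.4% ± 2.37 of the rest (SD, n = 5 libraries), and Fosb in 11.9% ± 1.59 and 12.4% ± 1.27. Fosl2 was detected in 27.0% ± 4.34 of Ier5l-positive and 15.2% ± 3.87 of Ier5l-negative cells and Junb in 51.5% ± 1.53 and 40.4% ± 3.53, higher in 5 of 5 libraries. Jun went the other way, with 32.1% ± 3.05 and 40.4% ± 2.98, lower in 5 of 5. In 1-week kidney Fosl2 was detected in 13.15% ± 2.32 of Ier5l-positive and 8.79% ± 0.808 of Ier5l-negative cells, Junb in 56.8% ± 2.55 and 45.99% ± 2.19 and Jun in 12.9% ± 6.19 and 16.6% ± 6.08 (SD, n = 3 libraries). In labelled 24-week spleen Fosl2 was detected in 37.9% ± 4.95 and 20.3% ± 5.04, Junb in 72.2% ± 5.11 and 53.6% ± 6.38 and Jun in 19.9% ± 1.13 and 29.1% ± 0.953 (SD, n = 3 libraries). These cells share their library and its depth, and the shares are given with no test.

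**Figure D4:**
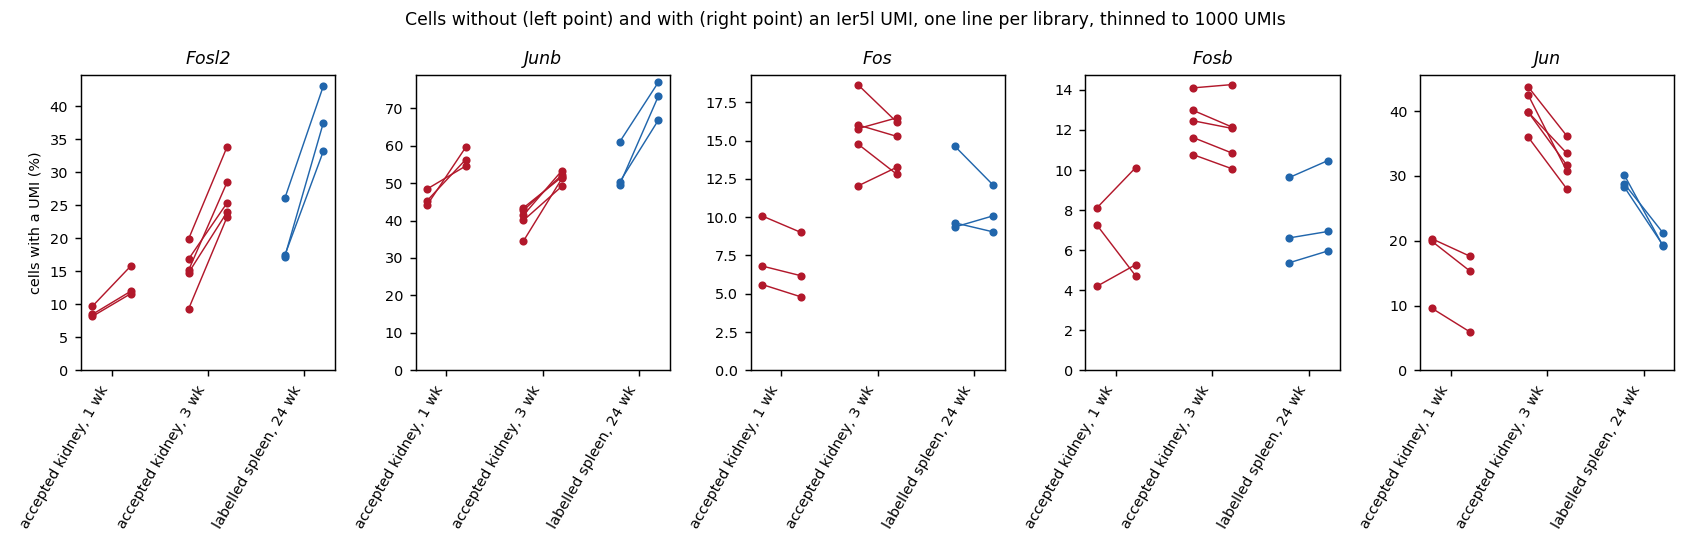
Share of cells with a UMI of Fosl2, Junb, Fos, Fosb and Jun among cells without (left point) and with (right point) an Ier5l UMI, after thinning to 1000 UMIs, with 1 line per library. Lines for Fosl2 and Junb go up and lines for Jun go down in every library of 1-week kidney, 3-week kidney and labelled 24-week spleen, while lines for Fos and Fosb go either way at 3 weeks.

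Over the means of the 9 conditions, log2(CPM + 1) of Fos and Fosb had a Pearson r of 0.92, Junb and Ier2 of 0.94, Junb and Dusp1 of 0.93 and Fosl2 and Ier5l of 0.98, whereas Fos and Fosl2 had 0.02 and Fos and Ier5l 0.05. These are descriptions over 9 points that share libraries. Among 2670 other genes whose mean over conditions reached 50 CPM, Ppp1r15a, a stress-induced phosphatase subunit, had the highest r with Fos (0.91), Jun (0.90) and Junb (0.90). The next were Srsf5 (0.89) and Polr2e (0.89) for Fos, Atf4 (0.89) and Smpdl3a (0.89) for Jun and Cnbp (0.87) and Gimap9 (0.87) for Junb. For Dusp1 they were Rab5a (0.92), Gimap9 (0.92) and Coq10b (0.90).

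Genes of the pathway outside the 10 were tested from fixed lists, which were chosen with earlier results of these data known. The genes named are called genes with the largest or smallest log2 fold changes of their list. Their p-values are therefore not independent of that choice. Of 29 other immediate early genes tested, 15 rose and 9 fell in kidney against spleen at 1 week, and 16 rose and 8 fell at 3 weeks, beside 27.2% and 25.2% of all genes at 1 week and 41.6% and 19.2% at 3 weeks. The medians were 0.31 and 0.61 on the log2 scale against -0.01 and 0.21 over all genes. The nuclear receptor Nr4a2 was higher by 4.06 ± 0.25 (edgeR adjusted p = 2.7e-15) and 4.77 ± 0.20 (1.7e-20), and Rgs1, a regulator of G protein signalling known from tissue-resident T cells, by 3.81 ± 0.16 at 3 weeks (1.5e-20). The RNA-decay factor Zfp36 was lower in kidney at 1 week, by -1.10 ± 0.17 (edgeR adjusted p = 2.5e-06). In rejecting against accepted kidney 2 of the 29 rose and 15 fell, with a median of -0.53, among them Cebpb at -2.45 ± 0.25 (1.1e-10) and Zfp36 at -1.99 ± 0.28 (1.1e-07), beside 54% and 13.8% of all genes. In 1-week recipient against naive spleen 18 rose and 1 fell (median 0.71), beside 23.3% and 28.1% of all genes, with Rgs1 at 2.00 ± 0.18 (edgeR adjusted p = 7.6e-11) and Nr4a1 at 1.90 ± 0.24 (7.5e-08), and Sgk1 fell, at -0.64 ± 0.14 (0.00037). Between 1 and 3 weeks in kidney 13 rose and 7 fell, shares close to the 49.9% and 20.8% of all genes, and the NF-kappaB inhibitor Nfkbia was at -1.85 ± 0.10 (edgeR adjusted p = 1.3e-16), opposite in direction to Fos and Jun.

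Of 13 tested basic leucine zipper partners of AP-1, 5 rose and 2 fell in kidney against spleen at 1 week, beside 27.2% and 25.2% of all genes, and 7 rose and 1 fell at 3 weeks, beside 41.6% and 19.2%. Bach2, a repressor that competes for AP-1 sites in CD8+ T cells, fell, at -2.34 ± 0.19 (edgeR adjusted p = 1.5e-12) and -3.90 ± 0.16 (7.6e-21), and Batf, an AP-1 subunit of effector T cells, rose by 0.94 ± 0.16 (5.4e-06) and 0.58 ± 0.14 (0.00081). In rejecting against accepted kidney 9 rose and 2 fell, beside 54% and 13.8% of all genes, with Bach2 at 3.43 ± 0.21 (edgeR adjusted p = 3.6e-16). Of 19 upstream kinases and serum response factors 15 rose and 0 fell in that comparison (median 1.20), Rps6ka3 by 2.48 ± 0.12 (7.7e-19), beside 54% and 13.8% of all genes and an all-gene median of 0.68 that depends on the scaling given above. In kidney between 1 and 3 weeks 12 of the 19 rose and 1 fell, beside 49.9% and 20.8% of all genes. Against spleen 7 rose and 5 fell at 1 week, beside 27.2% and 25.2%, and 8 rose and 3 fell at 3 weeks, beside 41.6% and 19.2%, so that these counts lay near those of all genes. Of 10 other dual specificity phosphatases 4 rose and 1 fell in kidney against spleen at 1 week and 7 rose and 2 fell at 3 weeks, beside the same shares of all genes as the kinases, with Dusp4, a nuclear ERK phosphatase, higher by 3.86 ± 0.18 (edgeR adjusted p = 1.6e-18) and 4.10 ± 0.19 (2.4e-19). In rejecting against accepted kidney 3 rose and 3 fell, beside 54% and 13.8% of all genes, and Dusp2, which is found mainly in immune cells, fell, at -1.92 ± 0.17 (7.9e-12).

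Other CD45+ cells of the naive spleen show where these genes are expressed without a transplant. Cells outside the CD8+ T cell matrix were classed by fixed markers into 28087 B-marker, 874 myeloid-marker and 2367 CD4-marker cells of 47060 in all, and sums per library and class (n = 5 libraries) were tested with edgeR with the library as a block. Myeloid-marker cells had the highest level of Fos, Dusp1, Fosl2, Egr1, Ier2 and Junb. Fos was 821 ± 224 CPM in myeloid-marker, 187 ± 61.0 in B-marker, 96.7 ± 21.3 in CD4-marker and 67.6 ± 20.5 in CD8+ T cells (mean ± SD). Against myeloid-marker cells, B-marker cells were lower in Fosl2 by -6.39 ± 0.24 (log2, edgeR adjusted p = 2.7e-12), Dusp1 by -4.18 ± 0.18 (9.9e-12), Fos by -2.17 ± 0.15 (4.0e-09), Egr1 by -1.73 ± 0.22 (7.5e-06), Junb by -1.69 ± 0.14 (4.4e-08) and Ier2 by -1.41 ± 0.11 (2.3e-08). Fosl2 averaged 58.7 ± 18.1 CPM in myeloid-marker and 0.690 ± 0.184 in B-marker cells. Jund rose in B-marker cells, by 0.92 ± 0.12 (edgeR adjusted p = 9.1e-06). Fosb, at 290.5 ± 81.9 CPM in myeloid-marker and 291 ± 55.9 in B-marker cells, did not pass the test (0.04 ± 0.20, edgeR adjusted p = 0.87). Jun (-0.42 ± 0.15, 0.031) and Ier5l (-2.11 ± 0.58, 0.0058, edgeR adjusted p) passed, but Jun was lost without library 2, 4 or 5 (-0.39, -0.36 and -0.27) or without the block (-0.47), and Ier5l without library 4 (-1.53). Over all genes 29.5% were called higher and 27% lower in this comparison of 11489 genes.

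CD4-marker cells were set against B-marker cells in the same way. Fosl2 was higher by 3.94 ± 0.27 (edgeR adjusted p = 1.6e-13), Junb by 0.89 ± 0.05 (1.7e-16), Dusp1 by 0.78 ± 0.12 (9.8e-07) and Ier2 by 0.37 ± 0.05 (2.1e-07). Fosb was lower by -2.60 ± 0.07 (edgeR adjusted p = 2.8e-24), Fos by -0.93 ± 0.09 (1.1e-10), Jund by -0.75 ± 0.04 (1.5e-17) and Jun by -0.54 ± 0.04 (4.2e-13). Egr1 was lower by -0.30 ± 0.10 (edgeR adjusted p = 0.010), and did not pass with TMM factors (-0.18), DESeq2 (-0.15), no block (-0.29) or without library 2 (-0.27) or 3 (-0.25). Ier5l did not pass (0.67 ± 0.51, edgeR adjusted p = 0.27). Over all 11335 genes 22.2% were called higher and 38.3% lower, and 36.7% of calls were higher, or 48.0% with TMM factors. Fosb was thus expressed at 48.3 ± 5.07 CPM in CD4-marker and 39.2 ± 10.4 in CD8+ T cells, against the B-marker level given above. In the 2 libraries of rejecting kidney, Fos was 230.6 and 443 CPM in myeloid-marker cells and 32.1 and 44.1 in CD4-marker cells, against 18.8 to 48.8 in CD8+ T cells, with no test.

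**Figure D5:**
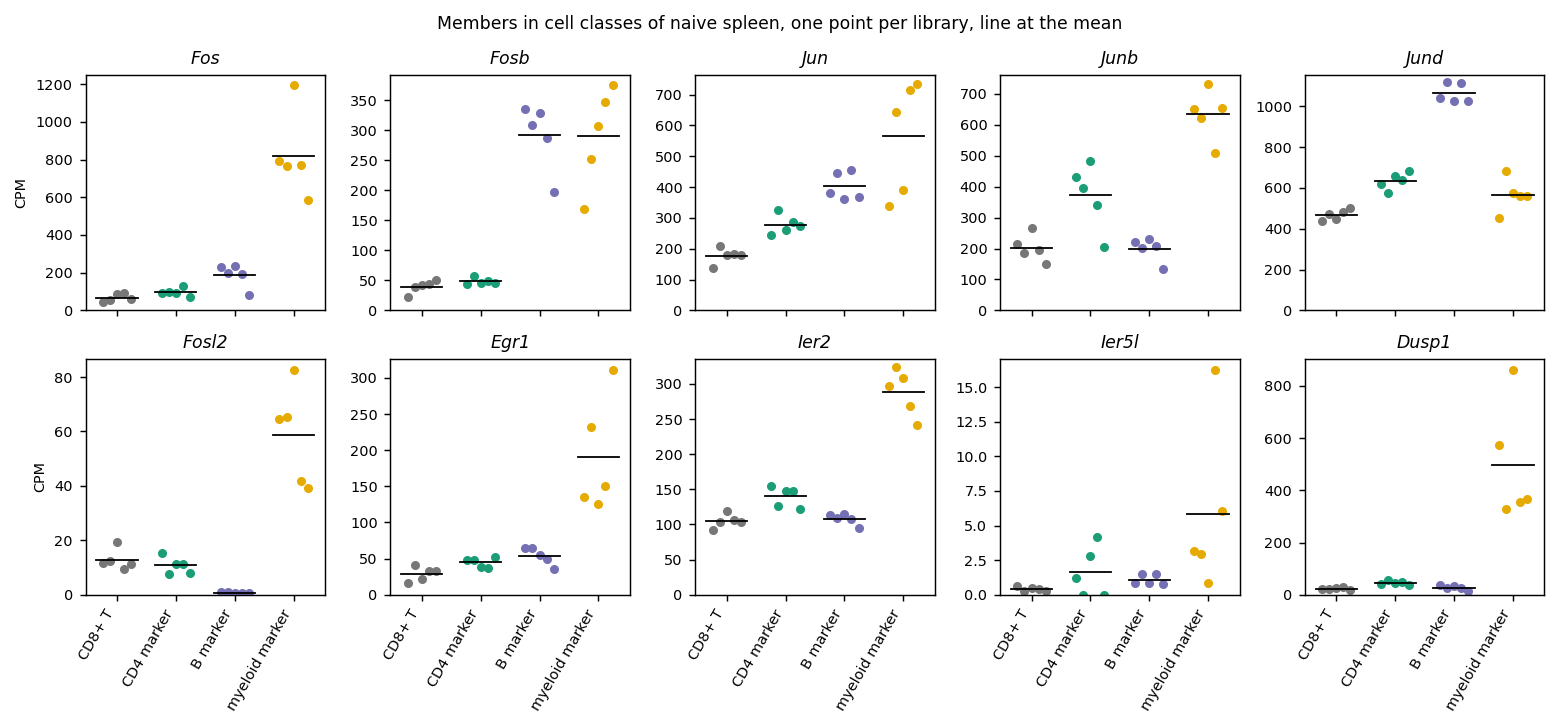
CPM of the 10 genes in 4 cell classes of the naive spleen, with 1 point per library (n = 5) and a line at the mean, on linear axes that start at 0. Myeloid-marker cells are highest for Fos, Fosl2, Egr1, Ier2 and Dusp1, B-marker cells are highest for Jund, and Fosb is about equally high in both.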

How the data were processed

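CD45+ cells were sorted from grafts and spleens and sequenced with 10x 3′ droplet chemistry. The authors' UMI counts per gene and cell, deposited as CD8+ T cell matrices and as CD45+ matrices, were used as raw counts. Cell Ranger, with mm10, is named in the submitters' processing notes, and the study's methods name Seurat; versions are not given in the sources used here. Doublets were not called again.

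UMIs were summed per library and gene. Libraries were identified from the tag that precedes each cell barcode. The tags of rejecting kidney are numbered 2 and 3, and these libraries are called 1 and 2 here. CPM values are these UMI counts scaled to a common library total. One edgeR (4.0.16) quasi-likelihood fit over all 9 CD8+ groups, with plain library totals, gave log2 fold changes and Benjamini-Hochberg adjusted p-values in R 4.3.3. Totals were 153266 to 25960721 UMIs, and p-values measure only the spread between these libraries. Intervals and the floor of 3 UMIs cover counting error only. Shares of cells were taken after thinning to 1000 UMIs (seed 7). CD45+ cells of naive spleen outside the CD8+ matrix were classed by fixed markers. Alternatives were TMM factors, DESeq2 (1.42.0), no filter on low counts, only the groups compared, gated cells, library totals without mitochondrial and ribosomal protein genes, thinning to 500 UMIs and leaving out each library. The fit with the library number as a block and the fit without the 24-week libraries were added after the data were seen. Deviations of same-numbered kidney and spleen libraries at 3 weeks had correlations of 0.56, 0.17, 0.24, 0.21 and 0.16. Libraries with different numbers reached 0.29 (kidney 3 with spleen 4) and 0.24 (kidney 2 with spleen 3). Whether the numbers pair the libraries is therefore not settled. Scripts were tested on simulated data.

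The 10 genes and all gene lists were chosen with earlier results of these data known. Besides the 10 genes, the text names list genes called in a comparison, from the 3 largest and 3 smallest log2 fold changes of each list with a mean of at least 10 CPM in 1 group, and the 5 genes with the highest correlation to Fos, Jun, Junb and Dusp1. Hspa1a was named for its levels after they were seen.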

Additional observations from a re-analysis of the deposited data

Results flagged for a closer look

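In 5 of 90 sets of 4 or 5 libraries tested, 1 library stood apart from the others, and chance alone gives about 1 in 20. Ier2 was 141 CPM in library 1 of 3-week kidney against 182 to 196 in the others, and was detected in 11.96% of its cells against 16.03% to 17.2%. Fosl2 was detected in 2.09% of cells of naive spleen library 3 against 1.26% to 1.48%, and Egr1 in 1.26% of cells of library 1 against 2.09% to 2.42%. Junb was 133 CPM in B-marker cells of naive spleen library 5 against 202 to 229.8.

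Fosb differed between kidney and spleen by -1.53 on the log2 scale at 1 week and by 1.12 at 3 weeks, with every kidney library below every spleen library at 1 week and above at 3 weeks, and this difference was not tested because the gene was chosen with its values known. Jun moved from -1.01 to 1.40 and Fos from -1.70 to 0.52 between the same times, also with no test, but kidney and spleen libraries overlapped for Jun at 1 week and for Fos at 3 weeks.

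For genes of the fixed lists the kidney over spleen difference was tested at 3 weeks against 1 week in the edgeR fit. Calls were 9 positive and 5 negative of 29 other immediate early genes, 3 and 1 of 13 partners and 6 and 0 of 19 kinases and factors. They were 4 and 1 of 10 phosphatases and 3 and 2 of 13 heat shock genes. The genes named here are up to 3 called genes from each end of a list. Values are signed log2 differences, kidney minus spleen, at 3 weeks minus those at 1 week. They were positive for Hspb1 (3.04), Dusp16 (1.84), Dusp6 (1.78), Rgs1 (1.70), Cebpb (1.47), Klf4 (1.46), Dnajb4 (1.19), Dnajb1 (1.00), Dusp7 (0.89), Elk3 (0.89), Rps6ka1 (0.69), Atf4 (0.60), Map2k1 (0.58) and Atf7 (0.47). They were negative for Nfkbia (-1.68), Nr4a1 (-1.61), Bach2 (-1.56), Nfkbiz (-1.49), Dusp10 (-0.67), Hspd1 (-0.60) and Hspe1 (-0.43). Bach2 was lower in kidney at both times, and further below spleen at 3 weeks. Over all genes 26.8% were called positive and 9.62% negative for this difference. Of these calls 73.6% were positive, or 44.5% with TMM factors.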

How the results depend on the processing

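Total counts of genes called, both directions together, stayed within 1.5 times under TMM factors, DESeq2 and no filter in the 12 comparisons, and in 90 fits that each left out 1 library. The split by direction moved more: in rejecting against accepted kidney 1727 genes were called lower, or 4002 with TMM factors and 3588 with DESeq2, and in labelled 24-week against 3-week kidney 1962 were called higher, or 3595 and 3648. For total counts the exception was rejecting kidney versus rejecting recipient spleen, 1 week, fitted on only the groups compared, with 1313 genes called (880 higher, 433 lower). In rejecting against accepted kidney Hspa5 (-0.22 and -0.14), Klf10 (-0.18 and -0.0937) and Sgk1 (-0.18 and -0.0917) changed sign with TMM factors and DESeq2. In gated cells Maf changed sign in labelled 24-week against 3-week kidney (-1.37), and Mafg in 1-week recipient against naive spleen (-0.12). The cause was not tested. With the library number as a block, 3354 genes were called higher and 3018 lower in kidney against spleen at 1 week, 5391 and 2340 at 3 weeks and 1698 and 3804 as labelled at 24 weeks. Same-numbered libraries had correlations of 0.28, -0.0005 and 0.27 at 1 week and -0.01, 0.10 and 0.31 at 24 weeks. With the block Dusp1 (-0.37) at 1 week and Junb (-0.37) at 24 weeks were past the threshold. The blocked fits also hold only the groups compared, and without the block such fits already called Junb at 24 weeks and Fos at 3 weeks, so of these only the call of Dusp1 came with the block. With totals without mitochondrial and ribosomal protein genes, levels were 1.25 times as high in rejecting kidney and 1.84 times in naive spleen, 80 of 90 group means moved by over 1 SD, and 5 differences changed sign, none of them called (Jund in 3-week against 1-week kidney, Junb in kidney against spleen at 1 and 3 weeks, Ier2 at 3 weeks and Jund as labelled at 24 weeks). Thinning to 500 UMIs moved 76 of 90 shares of cells by over 1 SD. Depth limits Ier5l in the spleens and all genes in rejecting spleen.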
